A study of Homo sapiens with 18 samples.

Results

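The first 48 h of differentiation were described in unedited (WT) HUDEP-2 cells, by setting 3 libraries made after 48 h against 3 libraries made from undifferentiated cells. These 6 libraries were taken by their labelled genotype and stage from the 18 of the series, which also hold WT cells after 5 d and, at the same stages, HBBko cells, in which HBB was disrupted. HUDEP-2 is an immortalised line of human erythroid progenitors from umbilical cord blood that carries an inducible human papillomavirus E6/E7 construct and makes mainly adult globin. No gene was edited in either WT group and the labels name no treatment other than differentiation. The labels give neither the media nor the day on which a library was made, and they do not say whether the triplicates were started separately, so p-values measure only the spread between these libraries. The 2 lines are told apart in the table by column names that were read as WT and HBBko from the names alone. All 11266 genes with at least 1 unit in at least 3 of the 6 libraries were compared, out of 35616 genes in the table.

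During terminal differentiation an erythroid progenitor leaves the state held by stem cell factor and its receptor KIT, and comes to depend on erythropoietin. GATA1 and KLF1 then drive the genes for globin, heme, iron uptake and the red cell membrane, while GATA2, MYB and other progenitor genes are switched off. The cell divides a few more times, condenses its nucleus and clears its mitochondria before it becomes a reticulocyte.

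Values are the authors' TPM, a length-corrected transcript abundance, after a further scaling between libraries (scaled TPM). A change is a log2 fold change of scaled TPM plus 1, 48 h over undifferentiated, with its standard error (SE). A gene was called where the adjusted p of limma's moderated test (Benjamini-Hochberg over the 11266 genes) was under 0.05. Errors on levels are standard deviations (SD) over 3 libraries per group. In bulk RNA, fewer cells of a type and less RNA per cell cannot be told apart.

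Erythroid marker transcripts were abundant in both groups. Of the 12 erythroid lineage markers, 11 were called higher at 48 h and none lower, against 19.3% of all tested genes called higher and 36.8% called lower. Their summed level was 150892 to 197671 scaled TPM at 48 h, against 18133 to 31734 in undifferentiated cells. Most of that sum came from HBB and HBA1 in both groups. Markers of most other blood and stromal types were low at 48 h. The 14 myeloid markers summed to at most 1.55 scaled TPM at 48 h and 6.45 before, the 12 lymphoid markers to at most 0.545 and 0.594, and the 12 stromal and endothelial markers to at most 1.23 and 1.02. The 12 megakaryocyte markers summed to 7.99 to 10.4 scaled TPM at 48 h and 8.28 to 10.3 before. MPO, which defines the granulocyte lineage, reached 0.00533 scaled TPM at most at 48 h and was listed at 0 in the 3 undifferentiated libraries. The T cell marker CD3E was listed at 0 in all 6. CD34, the surface marker of early progenitors, did not pass 0.0480 at 48 h or 0.129 before, so neither group held appreciable CD34 transcript. Mast cell and eosinophil genes were the exception among these lists and are described with the genes that fell. Library sums were 916576 to 984482 at 48 h and 785605 to 871601 before. Replicates correlated across genes at 0.996 to 0.998 at 48 h and at 0.986 to 0.992 in undifferentiated cells, the third undifferentiated library being the farthest from its group. It held more globin and SLC4A1 than the other two, as did the third library at 48 h.

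The test called 6327 of 11266 genes (56.2%), of which 2179 were higher (19.3%) and 4148 lower (36.8%). Without the first, the second or the third 48 h library, 5206, 5176 and 5245 were called, so that most genes were then not called. At a change of at least 2-fold, 335 genes were higher (2.97%) and 1117 lower (9.91%). The asymmetry grew with size, since 54 genes rose and 260 fell by at least 4-fold, and 1 gene, AQP1, rose and 23 fell by at least 16-fold. The groups did not overlap for 23.4% of tested genes in the higher direction and 41% in the lower. The median change of all tested genes was -0.11. The split depended on how libraries were scaled. As deposited, 34.4% of called genes were higher. That share was 17.4% with library sums made equal, 46.1% with globin genes removed from the total, 48.6% after median-of-ratios scaling and 55.3% after quantile normalization. The all-gene median moved with it, to -0.30 under equal sums, -0.010 without globins, 0.012 under median of ratios and 0.063 under quantile normalization. Changes of small size are therefore read against those medians, and each gene list is given with its own median. The counts of a list compare with 19.3% of all tested genes called higher and 36.8% called lower. A count near those shares is not read as a result about its list. A list's counts cover the members that passed the filter on low values, and a member that passed through 1 group alone had to differ, so such members are named where a list has them.

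**Figure D1:**
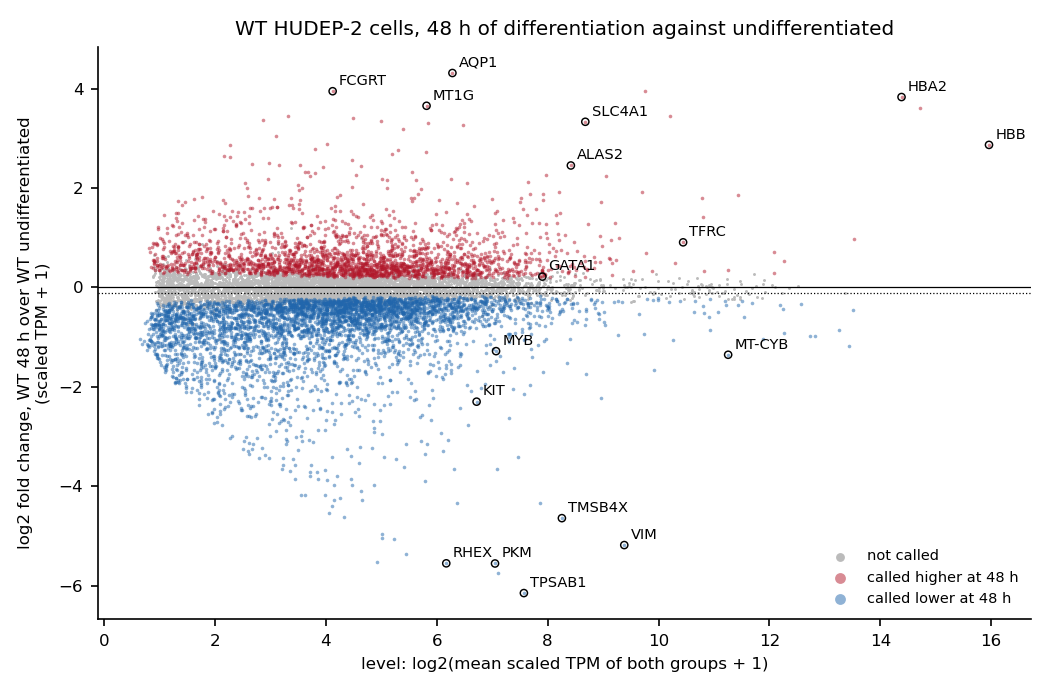
Log2 fold change, WT 48 h over WT undifferentiated, against the mean level of each of the 11266 tested genes on a log2 scale. Each point is a gene, red where called higher at 48 h, blue where called lower and grey where not called, and the dotted line is the all-gene median of -0.11. Falls reach beyond -6 (TPSAB1) while the largest rise is 4.31 (AQP1), and the most abundant risers are globins.

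Globin transcripts rose most in absolute terms. All 10 globin genes were called higher, with a median change of 3.23, and their groups did not overlap for any of the 10, although HBE1 passed the filter through the 48 h libraries alone. HBB, the adult beta-globin gene (GRCh38 chromosome 11, 5225464 to 5229395), was at 99196, 103106 and 132741 scaled TPM at 48 h, against 12517, 12454 and 22376 in undifferentiated cells. Every 48 h library was above every undifferentiated one by more than 4-fold, and the change was 2.87 ± 0.24 (adjusted p = 1.1e-05). The alpha-globin gene HBA1 (chromosome 16, 176680 to 177522) was at 45716, 45232 and 57938 scaled TPM at 48 h, against 3451, 3096 and 6245 in undifferentiated cells. Its neighbour HBA2 was at 36259.5, 35791 and 47336 scaled TPM at 48 h, against 2435, 2050.1 and 4263 in undifferentiated cells. The coding sequences of HBA1 and HBA2 are nearly identical, so how reads were divided between them is uncertain, but both changed by a like amount, 3.60 ± 0.25 and 3.83 ± 0.25. HBM, a minor alpha-like globin of the same cluster, changed by 3.95 ± 0.23 with 1505, 1481 and 1859.6 scaled TPM at 48 h, against 92.2, 74.8 and 158 in undifferentiated cells. The fetal gamma-globin genes, which are also close copies of each other, rose as well. HBG2 was at 1764, 1994 and 2763 scaled TPM at 48 h, against 151, 177 and 270.2 in undifferentiated cells, a change of 3.46 ± 0.22. HBG1 was at 141, 149 and 192 scaled TPM at 48 h, against 12.02, 14.99 and 21.5 in undifferentiated cells, a change of 3.26 ± 0.19. HBD, which encodes the minor adult delta-globin, was at 62.7, 67.5 and 94.4 scaled TPM at 48 h, against 5.93, 7.43 and 8.296 in undifferentiated cells (3.19 ± 0.16, adjusted p = 4.3e-07). The embryonic genes moved less. HBZ (zeta) changed by 1.80 ± 0.12 and HBE1 (epsilon), whose level stayed low at 1.49, 1.26 and 1.24 scaled TPM at 48 h, against 0.388, 0.196 and 0.415 in undifferentiated cells, by 0.81 ± 0.12. After 5 d, HBB stood at 439258 ± 16960.1 scaled TPM and HBZ at 17.8 ± 1.67, so the zeta gene was higher at 48 h than at the stages on either side of it. AHSP, the chaperone of free alpha-globin, was at 2389, 2496 and 2887 scaled TPM at 48 h, against 833, 911 and 1180.2 in undifferentiated cells (1.42 ± 0.14, adjusted p = 2.1e-05).

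Together the globins took 20.2%, 20.3% and 24.7% of the scaled TPM of the 48 h libraries, against 2.36%, 2.28% and 3.84% in undifferentiated cells. The means were 21.7 ± 2.58% and 2.83 ± 0.877% (SD, n = 3 each). The groups did not overlap, and the two-sided exact permutation test gave p = 0.1, the smallest that 3 against 3 libraries allow. The makeup shifted too. Alpha-like genes made up 44.5 ± 0.699% of globin transcript at 48 h and 31.3 ± 1.63% before (exact permutation p = 0.1). Gamma-globin was 2.03 ± 0.147% of the beta-like transcripts at 48 h and 1.36 ± 0.135% before (exact permutation p = 0.1), and HBB remained 97.9 ± 0.150% of them at 48 h against 98.6 ± 0.145%. In each of these shares the 3 libraries of one group lay apart from the 3 of the other.

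**Figure D2:**
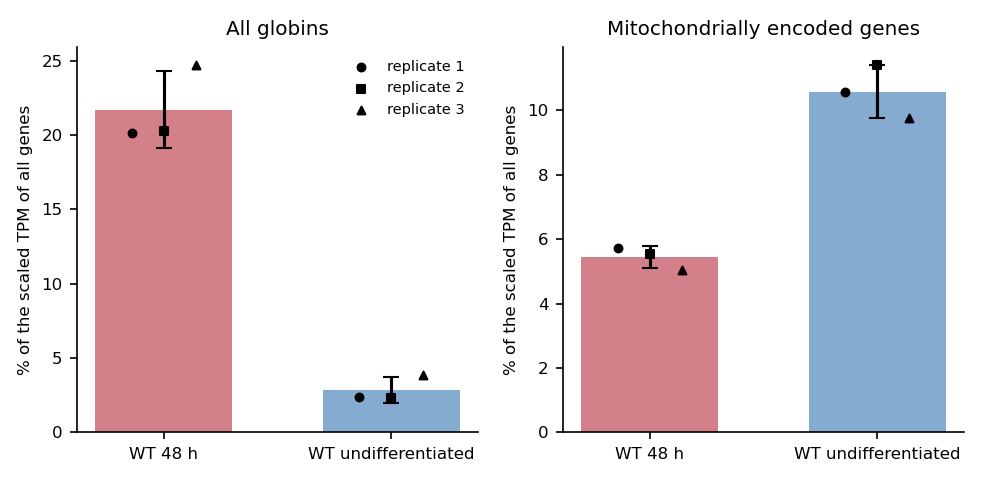
Share of each library's total scaled TPM held by all globin genes (left) and by mitochondrially encoded genes (right). Bars are group means with SD (n = 3), markers are libraries, and the axes start at 0. Globins average 21.7% at 48 h and 2.83% in undifferentiated cells, while mitochondrially encoded genes average 5.44% and 10.6%.

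Heme, iron and membrane genes rose alongside globin. ALAS2, the erythroid enzyme of the first step of heme synthesis, was at 509.8, 536 and 685 scaled TPM at 48 h, against 86.3, 94.1 and 137 in undifferentiated cells (2.45 ± 0.17, adjusted p = 3.0e-06). The housekeeping isozyme ALAS1 went the other way, at 11.1, 10.9 and 11.9 scaled TPM at 48 h, against 19.8, 18.3 and 18.1 in undifferentiated cells (-0.68 ± 0.084). Of 23 tested genes of heme synthesis and transport, 15 were called higher and 3 lower (median 0.65). The largest rises after ALAS2 were those of the mitochondrial carrier SLC25A39 (2.24 ± 0.22), the coproporphyrinogen oxidase CPOX (2.02 ± 0.14) and the biliverdin reductase BLVRB (1.79 ± 0.19). Besides ALAS1, the lower genes were the constitutive heme oxygenase HMOX2 (-1.17 ± 0.10) and the heme-binding protein PGRMC1 (-0.47 ± 0.093). Of 21 iron genes 11 were higher and 2 lower (median 0.32), or 9 and 4 with equal library sums. TFRC, the transferrin receptor, was at 1774, 1764 and 1904 scaled TPM at 48 h, against 921, 1076 and 911 in undifferentiated cells, a change of 0.91 ± 0.091. SLC25A37, which carries iron into mitochondria, changed by 1.93 ± 0.13, and the iron-sulfur cluster protein GLRX5 by 1.29 ± 0.10. The ferrireductase STEAP3, the ferritin receptor NCOA4 and the iron transporter SLC11A2 rose by a smaller and like amount (0.95, 0.94 and 0.93). ACO1, the iron-regulatory aconitase, was lower (-0.65 ± 0.08), as was the iron chaperone PCBP2 (-0.30 ± 0.086). PCBP2 lost its call without the first or the second 48 h library (adjusted p = 0.072 and 0.058), which left 1 lower member. FTL, the ferritin light chain, was among the 8 genes with the largest gain in level, with 5231, 5369.9 and 5673 scaled TPM at 48 h, against 3316, 2926 and 3660.1 in undifferentiated cells.

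Of 29 genes of the red cell membrane and its skeleton, 25 were higher and 1 lower (median 0.75). AQP1, the water channel (GRCh38 chromosome 7, 30911694 to 30925516), was at 134, 138 and 169 scaled TPM at 48 h, against 4.49, 5.41 and 10.5 in undifferentiated cells, a 48 h mean 21.6 times the undifferentiated mean. No other gene that passed the naming rule rose as much on the log scale (4.31 ± 0.23, adjusted p = 6.9e-07). SLC4A1, the anion exchanger band 3, was at 637, 643 and 939.5 scaled TPM at 48 h, against 51.3, 54.9 and 128 in undifferentiated cells (3.33 ± 0.31). The third undifferentiated library held more than 2 times the SLC4A1 of the others, yet stayed far below the lowest 48 h library. The Rh blood group genes RHD (2.26) and RHCE (2.25) rose by about the same, though they are near-identical and can share reads. CD47, the integrity marker that restrains phagocytosis, was the lower member (-0.64 ± 0.13). The thrombospondin receptor CD36, an early erythroid surface protein, was at 730.2, 758 and 784 scaled TPM at 48 h, against 185, 215 and 306 in undifferentiated cells (1.72 ± 0.16).

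**Figure D3:**
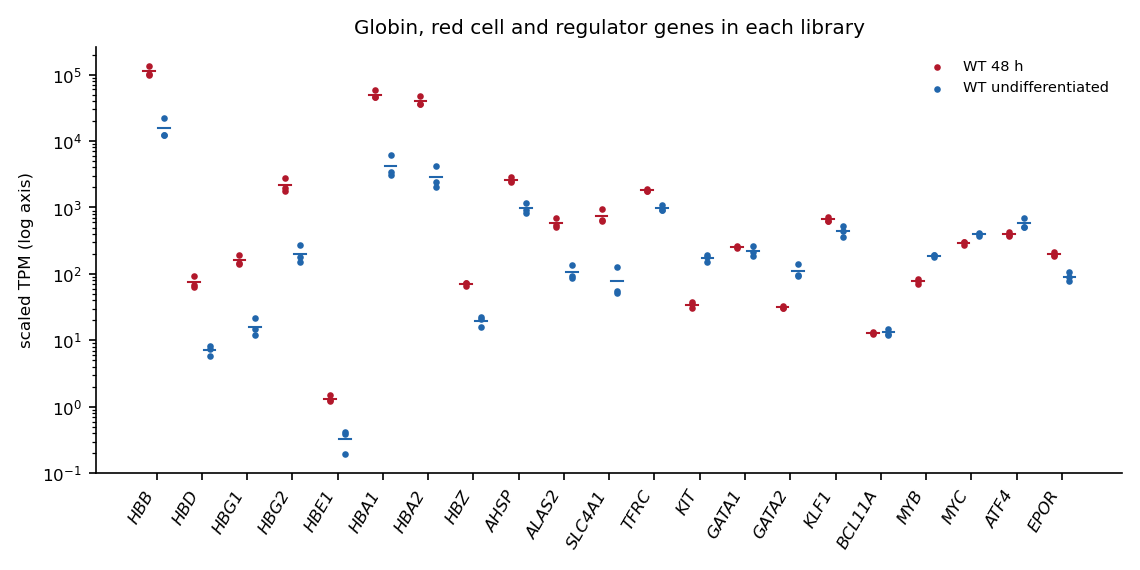
Scaled TPM of globin, red cell and regulator genes chosen by name in each library, on a log axis. Points are libraries, bars are means of 3 libraries, red for WT 48 h and blue for WT undifferentiated. The 2 groups overlap for GATA1 and BCL11A only, and the globins span mean levels at 48 h of 1.33 (HBE1) to 111681 (HBB).

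Promoter windows were read for the 22 genes chosen by name, rising and falling alike, to show their sequence context. RefSeq (GRCh38.p14) gave the 250 bases before the start for 11 of them, and 3 held the GATA factor motif AGATAA or its other-strand form TTATCT. Those of HBD, ALAS2 and EPOR are printed with the motif in capitals, 5′ to 3′ on the strand of the gene. All 3 genes rose, but so did most of the genes chosen by name, and only windows with the motif are printed. No link between motif and rise can be read from them. The printed windows lie at chr11:5234484-5234733, chrX:55030978-55031227 and chr19:11384315-11384564, all on the minus strand.
HBD: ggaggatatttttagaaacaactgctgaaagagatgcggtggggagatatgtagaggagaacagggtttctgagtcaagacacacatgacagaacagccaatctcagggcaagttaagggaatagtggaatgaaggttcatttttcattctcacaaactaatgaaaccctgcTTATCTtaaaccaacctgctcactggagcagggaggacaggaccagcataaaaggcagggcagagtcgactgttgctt
ALAS2: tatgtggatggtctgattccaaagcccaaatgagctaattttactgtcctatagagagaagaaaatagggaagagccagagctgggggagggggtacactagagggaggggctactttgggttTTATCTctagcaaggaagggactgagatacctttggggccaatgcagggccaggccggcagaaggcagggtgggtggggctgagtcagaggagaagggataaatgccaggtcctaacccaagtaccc
EPOR: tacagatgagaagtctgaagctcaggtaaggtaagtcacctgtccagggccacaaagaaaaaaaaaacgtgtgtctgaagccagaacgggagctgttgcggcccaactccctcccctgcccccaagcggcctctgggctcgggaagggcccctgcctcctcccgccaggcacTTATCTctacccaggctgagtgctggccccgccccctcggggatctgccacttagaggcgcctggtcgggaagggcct
None of the 11 windows held the KLF-type letters CCACACCC or GGGTGTGG. The other genes chosen by name had no window, so nothing is said about the letters in their promoters. Across the windows of this length, counted on both strands, AGATAA stood in 9.37% of 27305 promoters in the RefSeq table and in 4.32% of the 8564 that belong to tested genes. It stood in 7.69% of 247 genes called and at least 2-fold higher, and in 4.48% of 825 called and at least 2-fold lower. CCACACCC stood in 1.62% and 3.39% of the same sets, against 2.62% of the tested genes. These are descriptions of letters in a window and were not tested.

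Late maturation genes were mostly higher at 48 h. Of 29 tested, 21 were higher and 4 lower (median 0.64), ARG1 having passed the filter through the 48 h libraries alone. TRIM10, a ubiquitin ligase of terminal erythroid cells, was at 14.9, 14.7 and 26.1 scaled TPM at 48 h, against 1.72, 1.89 and 4.13 in undifferentiated cells (2.46 ± 0.27). BPGM, which makes the oxygen-affinity regulator 2,3-bisphosphoglycerate, was at 46.2, 47.7 and 61.6 scaled TPM at 48 h, against 8.86, 10.7 and 12.4 in undifferentiated cells (2.18 ± 0.14). The nuclear protein HEMGN changed by 1.58 ± 0.16 and the oxysterol-binding OSBP2 by 2.11 ± 0.14. A few late genes were lower first. The urea transporter SLC14A1 was at 18.4, 20.2 and 31.1 scaled TPM at 48 h, against 35.2, 34.6 and 35.3 in undifferentiated cells, and TMCC2 at 4.91, 4.93 and 7.03 scaled TPM at 48 h, against 8.15, 7.24 and 10.7 in undifferentiated cells, a fall that lost its call without the first or the second 48 h library (adjusted p = 0.059 and 0.061). Both were far above either stage after 5 d, SLC14A1 at 149.5 ± 24.3 and TMCC2 at 189.8 ± 19.7 scaled TPM. BNIP3L, the receptor for clearance of mitochondria, was also lower at 48 h (218, 220.3 and 213 scaled TPM at 48 h and 288, 339.9 and 290.0 before differentiation; -0.49 ± 0.082), with 379 ± 23.8 after 5 d.

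Erythroid transcription factors changed little in size. Of 20 tested, 15 were higher and none lower (median 0.45), or 11 and 2 with equal library sums, and 2 passed 2-fold, the GATA1 cofactor ZFPM1 (1.16 ± 0.16) and E2F2 (1.02 ± 0.15). KLF1 was at 637, 633 and 716 scaled TPM at 48 h, against 448, 363 and 524 in undifferentiated cells (0.59 ± 0.13, adjusted p = 0.0033). TAL1 changed by 0.64 ± 0.082. GATA1 itself was at 253, 249 and 264 scaled TPM at 48 h, against 212, 188 and 266 in undifferentiated cells. Its groups overlapped and it was not called (0.22 ± 0.12, adjusted p = 0.14), although it passed without the third undifferentiated library (0.35, adjusted p = 0.0023) and under 4 other alternatives (adjusted p = 0.0073 to 0.038), and its adjusted p ran up to 0.92, with equal library sums, over the alternatives. GATA2, a member of the early progenitor list that precedes GATA1, was at 31.3, 32.8 and 30.6 scaled TPM at 48 h, against 139.7, 95.7 and 92.3 in undifferentiated cells (-1.74 ± 0.14, adjusted p = 8.3e-06). Without the second undifferentiated library 1 of the 20 factors was called lower.

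Regulators of the fetal-to-adult globin switch moved in both directions, 6 higher and 12 lower of 25 tested (median -0.20), or 4 and 16 with equal library sums. Among all tested genes 19.3% were higher and 36.8% lower (median -0.11), so nothing is read from the split of this list. MYB, a progenitor factor whose loss is linked to fetal globin, was at 79.1, 83.6 and 69.6 scaled TPM at 48 h, against 191, 196 and 181 in undifferentiated cells (-1.28 ± 0.083, adjusted p = 2.0e-06). BCL11A, the main repressor of gamma-globin, was at 13.1, 13.4 and 12.6 scaled TPM at 48 h, against 12.7, 12.1 and 15.1 in undifferentiated cells. Its groups overlapped and no change was detectable (-0.02 ± 0.10, adjusted p = 0.88). SOX6, which acts with BCL11A, was at 15.5, 15.5 and 20.5 scaled TPM at 48 h, against 3.59, 2.43 and 4.2 in undifferentiated cells (2.06 ± 0.17). NFIA (1.11), KLF10 (0.93) and HIC2 (0.93) were higher too. The histone demethylase KDM1A, part of the corepressor that BCL11A and GFI1B use, was at 65.2, 66.9 and 59.9 scaled TPM at 48 h, against 137, 137 and 132 in undifferentiated cells (-1.07 ± 0.071). The chromatin remodeller CHD4 (-0.79) and the fetal RNA-binding protein LIN28B (-0.68) were lower as well.

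Genes of the progenitor state were mostly lower at 48 h. Of 10 tested members of the early progenitor list, 8 were lower and 2 higher (median -1.28). KIT, the stem cell factor receptor (GRCh38 chromosome 4, 54657918 to 54740715), was at 35.1, 37.6 and 30.95 scaled TPM at 48 h, against 179.9, 190.3 and 153 in undifferentiated cells (-2.30 ± 0.10, adjusted p = 2.2e-07). SPI1, the myeloid and lymphoid factor PU.1 that opposes GATA1, was at 1.499, 1.61 and 1.29 scaled TPM at 48 h, against 37.8, 30.3 and 32.3 in undifferentiated cells (-3.80 ± 0.11). CSF2RB, the shared beta chain of the IL-3, IL-5 and GM-CSF receptors, was at 1.47, 1.62 and 1.26 scaled TPM at 48 h, against 50.6, 46.2 and 43.7 in undifferentiated cells (-4.29 ± 0.10). HHEX fell by a smaller amount (-2.66 ± 0.12). CDK6, the progenitor cyclin-dependent kinase, was among the 2 higher members with 24.5, 26.6 and 21.2 scaled TPM at 48 h, against 10.2, 10.1 and 6.09 in undifferentiated cells (1.38 ± 0.17), and the integrin gene ITGA4 was the other (0.31 ± 0.073). MYC, a driver of growth and division, was at 307, 301 and 276 scaled TPM at 48 h, against 411, 369.6 and 401 in undifferentiated cells (-0.42 ± 0.077, adjusted p = 0.0014), a small fall, and stood at 63.2 ± 1.65 scaled TPM after 5 d.

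A few mast cell and eosinophil genes were expressed in undifferentiated cells and lower at 48 h. The 12 markers of mast cells, basophils and eosinophils summed to 15.6 to 17.5 scaled TPM at 48 h, against 588 to 796 before, most of it from the tryptases TPSAB1 and TPSB2. Of the 12, 6 were tested and called lower, but CPA3, MS4A2 and EPX passed the filter through the undifferentiated libraries alone, so that count supports nothing. TPSAB1, which encodes an alpha/beta-tryptase of mast cell granules (GRCh38 chromosome 16, 1240696 to 1242554), was at 4.37, 4.17 and 4.13 scaled TPM at 48 h, against 433, 305 and 386 in undifferentiated cells. The undifferentiated mean was 88.6 times the 48 h mean, and the change of -6.15 ± 0.12 was the deepest fall that the naming rule listed (adjusted p = 5.1e-09). TPSB2 was at 5.07, 3.73 and 3.42 scaled TPM at 48 h, against 306, 225 and 278 in undifferentiated cells (-5.74 ± 0.14) and TPSD1 changed by -5.06 ± 0.14, but these tryptases are near-identical copies whose reads can be shared. A further tryptase gene, TPSG1, fell by less (-0.67 ± 0.13). It was at 62.7, 57.6 and 50.9 scaled TPM at 48 h, against 112, 77.1 and 87.8 in undifferentiated cells. PRG2, the eosinophil major basic protein, was at 6.97, 7.36 and 9.48 scaled TPM at 48 h, against 37.9, 42.2 and 45.97 in undifferentiated cells, and EPX, eosinophil peroxidase, at 0.05495, 0.0422 and 0.0703 scaled TPM at 48 h, against 8.15, 6.63 and 8.21 in undifferentiated cells. MS4A2, the beta chain of the IgE receptor, was at 0.243, 0.225 and 0.316 scaled TPM at 48 h, against 7.55, 6.898 and 4.21 in undifferentiated cells. CPA3, the mast cell carboxypeptidase, was low before as well, at 0.0265, 0.00733 and 0.05 scaled TPM at 48 h, against 2.84, 2.35 and 1.58 in undifferentiated cells. Other defining genes of those cells were absent or close to it in both groups. CLC and RNASE2 were listed at 0 in all 6 libraries, FCER1A did not pass 0.0240 scaled TPM and HDC did not pass 0.0266 at 48 h or 0.211 before. The part that a change in the mix of cells has in these falls was not tested.

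The other genes among the 12 largest falls were of varied roles. VIM, the intermediate filament vimentin (GRCh38 chromosome 10, 17228259 to 17237593), was at 37.04, 36.6 and 29.6 scaled TPM at 48 h, against 1573, 1265 and 1058 in undifferentiated cells (-5.19 ± 0.14, adjusted p = 1.2e-08). The actin-capping CAPG was at 1.38, 0.731 and 1.099 scaled TPM at 48 h, against 89.7, 76.5 and 84.7 in undifferentiated cells (-5.36 ± 0.13). TMSB4X, which sequesters actin monomers, was at 21.5, 18.7 and 27.9 scaled TPM at 48 h, against 576, 524 and 662 in undifferentiated cells (-4.64 ± 0.14). Unlike VIM and CAPG, it was high again after 5 d (289.9 ± 46.8 scaled TPM, against 7.101 ± 1.87 for VIM). RHEX, an adaptor that binds the erythropoietin receptor, was at 1.83, 2.08 and 2.12 scaled TPM at 48 h, against 148, 131 and 142 in undifferentiated cells (-5.55 ± 0.085). The sialic acid-binding receptor SIGLEC6 was at 0.278, 0.234 and 0.326 scaled TPM at 48 h, against 67.3, 59.3 and 48.00 in undifferentiated cells (-5.52 ± 0.13). The calcium-binding S100A11 (-4.96), the lysosomal LITAF (-4.62) and the kinase-anchoring PALM2-AKAP2 (-5.04) completed the 12 largest falls with PKM and the tryptases TPSAB1, TPSB2 and TPSD1. SIGLEC6, LITAF and PALM2-AKAP2 passed the filter on low values through the undifferentiated libraries alone, so their direction was fixed by the filter. No value of the 3 libraries of one group entered the range of the other for any of the 12, which the naming rule required.

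Among the 12 largest rises, those outside globin and the membrane were FCGRT, SLC22A4, ATP1B2, the metallothioneins MT1G and MT1E, and MICG, annotated as an unprocessed pseudogene. FCGRT, the neonatal Fc receptor for IgG, was at 30.97, 32.1 and 32.1 scaled TPM at 48 h, against 0.806, 1.102 and 1.51 in undifferentiated cells (3.95 ± 0.12). SLC22A4, a carrier of ergothioneine that is abundant in erythroid cells, was at 37.8, 37.1 and 45.3 scaled TPM at 48 h, against 2.35, 2.604 and 3.81 in undifferentiated cells (3.40 ± 0.14). ATP1B2, a beta subunit of the sodium pump, was at 51.2, 53.8 and 65.8 scaled TPM at 48 h, against 3.26, 4.09 and 7.28 in undifferentiated cells (3.35 ± 0.22). MICG was at 23.8, 12.99 and 14.7 scaled TPM at 48 h and, in undifferentiated cells, at 1.10 and 0.959 in the first and the third library and listed at 0 in the second (3.46 ± 0.29). MT1G was at 114, 105 and 87.6 scaled TPM at 48 h, against 5.08, 4.15 and 16.3 in undifferentiated cells (3.66 ± 0.37) and MT1E at 16.02, 11.5 and 9.46 scaled TPM at 48 h, against 0.321, 0.1204 and 0.361 in undifferentiated cells (3.37 ± 0.17). MT1E passed the filter on low values through the 48 h libraries alone, so its direction was fixed by the filter. Unlike HBB, the genes FCGRT, MT1G, MT1E and MICG were lower after 5 d than at 48 h, with means of 18.9 ± 3.58, 10.8 ± 4.09, 2.405 ± 1.23 and 4.43 ± 3.39 scaled TPM.

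**Figure D4:**
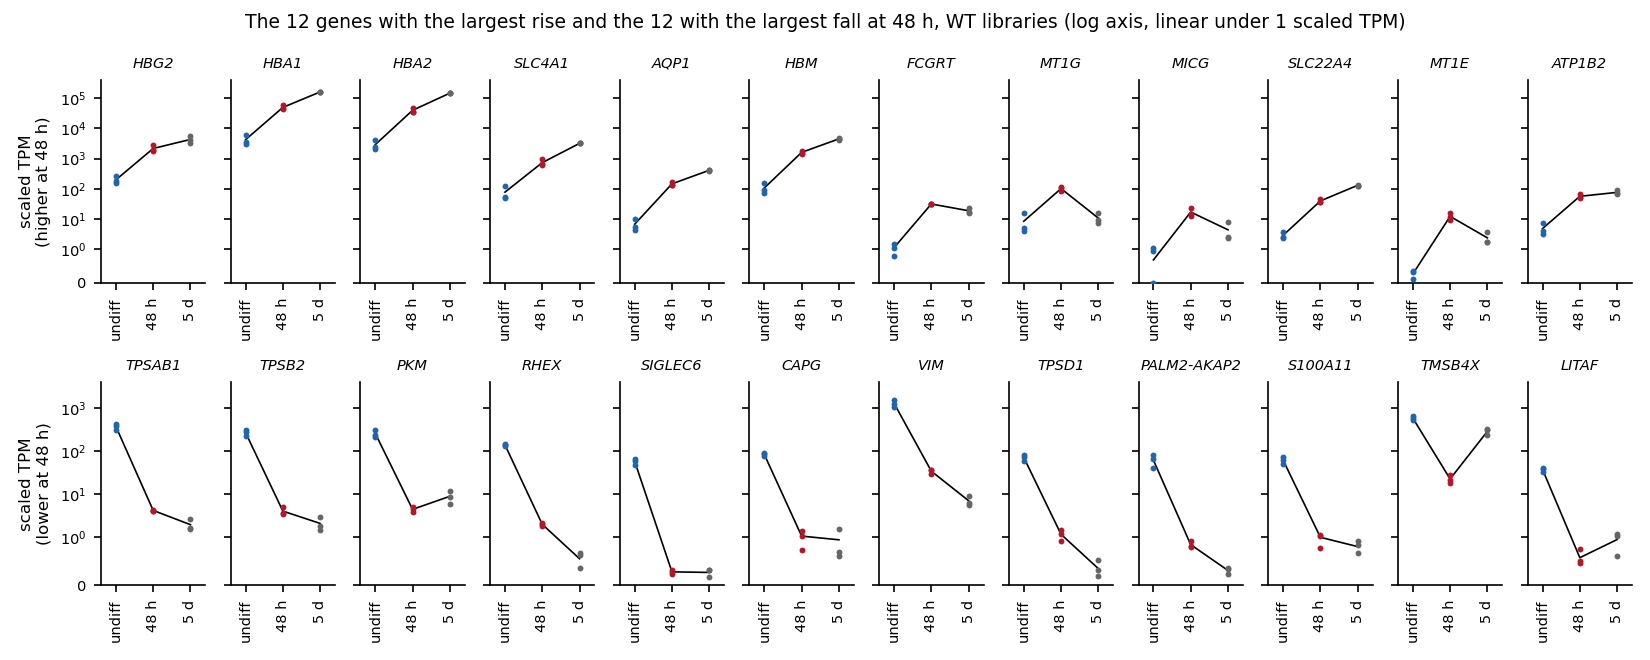
Scaled TPM of the 12 genes with the largest rise (top) and the 12 with the largest fall (bottom) at 48 h, in WT undifferentiated, 48 h and 5 d libraries, on an axis that is logarithmic above 1 and linear below. Points are libraries (n = 3 per stage) and lines join the means. Most risers climb further by 5 d, but MT1G, MT1E, MICG and FCGRT do not, and TMSB4X returns to a mean of 289.9 scaled TPM.

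The receptor for erythropoietin rose as that for stem cell factor fell. EPOR, the erythropoietin receptor, was at 195, 187 and 210.5 scaled TPM at 48 h, against 90.4, 78.2 and 105 in undifferentiated cells (1.11 ± 0.11, adjusted p = 2.3e-05), and its kinase JAK2 was at 21.2, 21.4 and 23.2 scaled TPM at 48 h, against 9.18, 9.92 and 7.94 in undifferentiated cells (1.20 ± 0.10). Of 19 erythropoietin signalling genes 6 were higher and 6 lower (median 0.0048), or 5 and 9 with equal library sums and 8 and 5 after quantile normalization. ERFE, the hormone by which erythroblasts lower hepcidin, was higher (1.54 ± 0.17), while the phosphatase PTPN6, which switches the receptor off, was at 2.97, 3.18 and 2.34 scaled TPM at 48 h, against 50.5, 44.1 and 35.6 in undifferentiated cells (-3.53 ± 0.14). SOCS2, a feedback target, was at 38.8, 39.2 and 39.2 scaled TPM at 48 h, against 107, 103 and 90.9 in undifferentiated cells (-1.34 ± 0.079). Of 15 genes of stem cell factor signalling and the immediate early response 8 were lower and 2 higher (median -0.46), or 7 and 4 after median-of-ratios scaling and 6 and 4 after quantile normalization. Of these ETV4 and ETV5 passed the filter through the undifferentiated libraries alone. The feedback inhibitors SPRY2 (-1.24) and SPRED1 (-1.19) and the ETS factor ETV4 (-1.93) were lower, and JUNB (0.97 ± 0.14) and FOS (0.48 ± 0.16) were higher. FOS lost its call without the first or the third 48 h library or the first or second undifferentiated one (adjusted p = 0.067 to 0.11).

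Glucocorticoid target genes were mostly lower. Of 16 tested, 9 were lower and 2 higher (median -0.58), and 7 fell by at least 2-fold. Among all tested genes 36.8% were lower, 19.3% higher and 9.91% lower by at least 2-fold. ANXA1 passed the filter through the undifferentiated libraries alone, so its direction was fixed by the filter. The counts were 9 and 4 after median-of-ratios scaling and 8 and 5 after quantile normalization. TSC22D3, the glucocorticoid-induced leucine zipper, was at 4.85, 5.05 and 7.67 scaled TPM at 48 h, against 88.5, 79.6 and 139 in undifferentiated cells (-3.90 ± 0.21). FKBP5, a chaperone of the receptor, was at 83.2, 84.9 and 76.3 scaled TPM at 48 h, against 246, 268 and 241 in undifferentiated cells (-1.62 ± 0.076), and the clock gene PER1 was at 8.98, 6.79 and 7.53 scaled TPM at 48 h, against 79.9, 68.4 and 83.4 in undifferentiated cells (-3.16 ± 0.11). Glutamine synthetase, GLUL, changed by -1.66 ± 0.10 and the annexin ANXA1 by -3.65 ± 0.13. After 5 d FKBP5 was at 29.5 ± 0.473 and TSC22D3 at 63.5 ± 3.08 scaled TPM. The exceptions at 48 h were the phosphatase DUSP1 (1.44 ± 0.12) and TXNIP (0.51 ± 0.13).

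Glycolysis genes were mostly lower, and isozymes of the same step moved apart. Of 24 tested genes of glycolysis and the hypoxia response, 18 were lower and 3 higher (median -0.74), SLC2A3 having passed the filter through the undifferentiated libraries alone. PKM, the pyruvate kinase of most tissues (GRCh38 chromosome 15, 72199029 to 72231822), was at 5.13, 4.51 and 3.78 scaled TPM at 48 h, against 319, 244 and 214 in undifferentiated cells (-5.56 ± 0.15, adjusted p = 9.3e-09). The erythroid and liver pyruvate kinase, PKLR, was at 207, 208 and 194 scaled TPM at 48 h, against 265, 232 and 285 in undifferentiated cells, a smaller fall (-0.35 ± 0.088). On the per-length TPM scale the mean of PKLR was far above that of PKM at 48 h (203 against 4.47), whereas in undifferentiated cells the means were alike (261 and 259). PFKM, the muscle-type phosphofructokinase that red cells keep, was at 73.3, 75.2 and 83.96 scaled TPM at 48 h, against 14.2, 12.9 and 17.3 in undifferentiated cells (2.32 ± 0.11), while the platelet type PFKP was at 5.36, 4.801 and 4.06 scaled TPM at 48 h, against 29.7, 21.96 and 19.04 in undifferentiated cells (-2.08 ± 0.16). Hexokinases moved apart as well, with HK1 at 390.1, 399 and 413 scaled TPM at 48 h, against 239.9, 241 and 261 in undifferentiated cells (0.70 ± 0.07) and HK2 at 1.42, 1.21 and 1.06 scaled TPM at 48 h, against 12.7, 13.7 and 12.7 in undifferentiated cells (-2.65 ± 0.10). ENO1 (-2.24), GPI (-2.15), LDHA (-1.71) and the glucose carrier SLC2A3 (-2.10) were lower.

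Mitochondrially encoded transcripts were lower at 48 h. Their share of the library total was 5.72%, 5.55% and 5.04% at 48 h, against 10.6%, 11.4% and 9.75% before (means 5.44 ± 0.350% and 10.6 ± 0.819%, exact permutation p = 0.1). Of the 13 genes, 11 were lower and none higher (median -0.85). MT-CYB of complex III was at 1401, 1368 and 1350.4 scaled TPM at 48 h, against 3511, 3585 and 3450.2 in undifferentiated cells (-1.36 ± 0.079) and MT-CO2 of complex IV at 7045, 6724 and 6600.4 scaled TPM at 48 h, against 15349, 15404 and 15131 in undifferentiated cells (-1.17 ± 0.10). They and MT-CO3, MT-ATP6, MT-ATP8, MT-ND4 and MT-ND4L made up 7 of the 8 largest losses of scaled TPM, the other being the elongation factor EEF1A1 (9822 ± 263 scaled TPM at 48 h and 13538 ± 863 in undifferentiated cells). The last 4 of those mitochondrial genes form overlapping pairs on one strand, so reads can be shared within each pair. Of 28 nuclear genes of the respiratory chain 11 were lower and none higher (median -0.16), a share near the 36.8% of all tested genes that were lower and a median near that of all genes (-0.11). SDHA changed most among those called (-0.53 ± 0.072). Their count was 24 lower with library sums made equal and 3 after median-of-ratios scaling, so it rests on the scaling. It was 5 without the first or the third 48 h library and 7 without the second. Mitochondrial translation and import had 11 of 23 lower and 2 higher (median -0.21), against 36.8% and 19.3% of all tested genes. The counts were 17 and none with equal library sums and 6 and 3 after median-of-ratios scaling, so they rest on the scaling too. Without the third 48 h library 7 of the 23 were lower. The mitochondrial transcription factor TFAM was at 41.5, 43.2 and 37.9 scaled TPM at 48 h, against 67.5, 69.7 and 50.2 in undifferentiated cells (-0.59 ± 0.12).

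Cholesterol synthesis was lower in 15 of 22 genes and higher in 1 (median -0.53). HMGCS1, which commits acetyl-CoA to the pathway, was at 42.2, 41.7 and 42.2 scaled TPM at 48 h, against 293, 336 and 191 in undifferentiated cells (-2.63 ± 0.17, adjusted p = 2.0e-06). CYP51A1, EBP and DHCR7, which act on sterols later in the pathway, changed by -1.16, -1.14 and -1.06. NSDHL was the single higher member (0.25 ± 0.077) and lost its call without any one of the 48 h libraries (adjusted p = 0.052 to 0.1). The higher members were 2 without the third undifferentiated library, and 2 were higher when the replicate number was fitted as a block.

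ATF4 and its amino acid response genes were lower at 48 h. ATF4, the factor that cells make when eIF2alpha is phosphorylated, was at 377, 383 and 422 scaled TPM at 48 h, against 514, 516 and 704 in undifferentiated cells (-0.54 ± 0.12, adjusted p = 0.0046). No 48 h library reached the lowest undifferentiated one. Of 37 tested targets 24 were lower and 3 higher (median -0.79), and 15 fell by at least 2-fold, although 5 were called higher with the replicate block and 6 without the third undifferentiated library. INHBE and VLDLR passed the filter through the undifferentiated libraries alone, INHBE being at 0.0573, 0.0539 and 0.0462 scaled TPM at 48 h, against 3.16, 3.98 and 9.81 in undifferentiated cells (-2.53 ± 0.30). The alanine aminotransferase GPT2 (-1.74 ± 0.19), the cystathionine lyase CTH (-1.50 ± 0.18) and the peptide hormone ADM2 (-1.61 ± 0.28) were lower, each highest in the third undifferentiated library. GDF15, a secreted growth factor that ATF4 can induce, was at 43.8, 43.9 and 74.98 scaled TPM at 48 h, against 11.5, 8.58 and 18.6 in undifferentiated cells (2.01 ± 0.27), and the proline synthesis enzyme ALDH18A1 rose (0.85 ± 0.064). The glycine carrier SLC6A9 was called higher although its groups overlapped (0.49 ± 0.18, adjusted p = 0.044), and it lost the call without the third 48 h library or the first or second undifferentiated one (adjusted p = 0.15 to 0.16).

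Of 20 cytosolic aminoacyl-tRNA synthetases, 10 were lower and 2 higher (median -0.20), against 36.8% and 19.3% of all tested genes. The counts were 11 and none with equal library sums and 7 and 7 after median-of-ratios scaling. SARS was at 145, 145 and 147 scaled TPM at 48 h, against 239, 239.5 and 290.4 in undifferentiated cells (-0.81 ± 0.087), and CARS, AARS, NARS and DARS fell by less. FARSB was higher (0.35 ± 0.081). HARS (0.18 ± 0.069, adjusted p = 0.045) lost its call with the replicate block (adjusted p = 0.065), which left 1 higher member, and without the first undifferentiated or any one 48 h library (adjusted p = 0.1 to 0.16). Among eIF2alpha kinases, phosphatase subunits and eIF2B, 2 of 13 were higher and 1, ATF4 itself, lower (median -0.049). With equal library sums 1 was higher and 5 lower, after median-of-ratios scaling 4 were higher and 1 lower, and the list's median was above 0 under 3 of 4 scalings. The lower members were 3 without the third undifferentiated library and 2 without the second, or without the third 48 h one. EIF2AK1, the heme-regulated kinase of erythroid cells, was at 181, 194 and 223 scaled TPM at 48 h, against 118, 126 and 127 in undifferentiated cells (0.68 ± 0.088). Of 21 genes of the endoplasmic reticulum and unfolded protein response 9 were lower and 2 higher (median -0.24). The lower count is near the 36.8% of all tested genes that were lower, and nothing is read from it. The counts were 15 and none with equal library sums and 6 and 4 after median-of-ratios scaling. XBP1 was at 26.96, 27.3 and 29.4 scaled TPM at 48 h, against 62.9, 72.4 and 86.7 in undifferentiated cells (-1.37 ± 0.11). CREB3L2 changed by -1.37 ± 0.14. ERN1, a higher member, passed the filter through the 48 h libraries alone. Without the first or the second 48 h library 1 was higher.

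Stress and protective genes were mixed. Of 25 heat shock and chaperone genes 9 were higher and 4 lower (median 0.097), against 19.3% and 36.8% of all tested genes. With equal library sums 3 were higher and 9 lower, and after median-of-ratios scaling 14 were higher and none lower. The 4 lower calls became 0, 1 and 2 without the first, the second and the third 48 h library. DNAJB1 was at 105, 107 and 117 scaled TPM at 48 h, against 48.97, 47.5 and 51.96 in undifferentiated cells (1.13 ± 0.075) and HSPA1B, whose near-identical copy is HSPA1A, at 90.3, 86.1 and 94.8 scaled TPM at 48 h, against 43.00, 33.8 and 43.5 in undifferentiated cells (1.16 ± 0.10). Of 21 genes of oxidative defence 8 were higher and 7 lower (median -0.15), or 5 and 12 with equal library sums. The same all-gene shares apply, and the lower count and the median are near those of all tested genes (36.8% and -0.11). NQO1 passed the filter through the undifferentiated libraries alone. PRDX2, the peroxiredoxin abundant in red cells, was at 4123, 4161 and 4691 scaled TPM at 48 h, against 1118, 991 and 1548 in undifferentiated cells (1.85 ± 0.15), and catalase, CAT, at 392, 403 and 446 scaled TPM at 48 h, against 135, 149 and 169.5 in undifferentiated cells (1.45 ± 0.10). MGST1, a membrane glutathione transferase, was at 11.7, 10.2 and 9.27 scaled TPM at 48 h, against 103, 115 and 85.5 in undifferentiated cells (-3.16 ± 0.12), and NQO1 changed by -1.86 ± 0.10.

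Mitotic genes rose a little. Of 22 genes of G2 and M phase 17 were higher and none lower (median 0.40), or 10 higher and 2 lower with equal library sums. CDC20, the mitotic activator of the anaphase-promoting complex, was at 258, 271 and 266 scaled TPM at 48 h, against 122, 105 and 147 in undifferentiated cells (1.09 ± 0.11) and the proliferation marker MKI67 at 61.6, 64.98 and 68.3 scaled TPM at 48 h, against 39.5, 41.6 and 38.9 in undifferentiated cells (0.69 ± 0.073). S phase genes were split, 9 higher and 5 lower of 25 (median 0.12), with 4 higher and 9 lower under equal sums and 13 higher and 3 lower after median-of-ratios scaling. RRM2, the small subunit of ribonucleotide reductase, was at 333, 339.8 and 384 scaled TPM at 48 h, against 156, 147 and 130.5 in undifferentiated cells (1.28 ± 0.091), while E2F1 (-0.61 ± 0.12) and the helicase subunit MCM3 (-0.41 ± 0.065) were lower. Genes of arrest and p53 had 10 higher and 7 lower of 23 (median 0.22), or 12 and 5 after median-of-ratios scaling. The antiproliferative BTG2 was at 67.5, 67.3 and 84.98 scaled TPM at 48 h, against 16.8, 18.9 and 26.04 in undifferentiated cells (1.80 ± 0.15) and its relative BTG1 at 6.86, 6.31 and 9.02 scaled TPM at 48 h, against 16.01, 16.6 and 21.5 in undifferentiated cells (-1.18 ± 0.15). CCND3, the D cyclin that sets how often erythroblasts divide, was at 400.4, 408 and 511 scaled TPM at 48 h, against 150.3, 129 and 185 in undifferentiated cells (1.51 ± 0.14), while CCND2 changed by -0.68 ± 0.10.

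Of 16 histone genes 8 were higher and 2 lower (median 0.29), or 8 and 4 with equal library sums. HIST1H4C was at 30.9, 27.5 and 35.1 scaled TPM at 48 h, against 7.301, 7.99 and 19.3 in undifferentiated cells (1.48 ± 0.29), and the replacement histone H2AFZ at 393, 381 and 396 scaled TPM at 48 h, against 606, 628 and 757 in undifferentiated cells (-0.76 ± 0.093). Canonical histone mRNA mostly lacks a poly(A) tail, which the kit named in the labels selects for, so those levels are partial. One of the 2 lower calls was lost without any one library other than the second undifferentiated one. Of 22 genes of the nuclear envelope and chromatin condensation 10 were higher and 1, the lamin LMNB1 (-0.39 ± 0.09), lower (median 0.26). Without the second undifferentiated library 2 were lower. HMGB2 was at 1029, 1052 and 1144 scaled TPM at 48 h, against 574, 669.7 and 775 in undifferentiated cells (0.68 ± 0.11), and the condensin subunits SMC2 and NCAPG rose by 0.73 and 0.55.

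Genes of protein synthesis and turnover stayed near the all-gene median. Of 32 cytosolic ribosomal protein genes none were higher and 5 lower (median -0.099), against 23 lower with equal library sums and 3 higher with 3 lower once globins were removed from the total. RPL23 changed by -0.50 ± 0.091. Without any one 48 h library 3 were lower, and without the third undifferentiated library 5 were higher. Ribosome biogenesis had 4 higher and 5 lower of 24 (median -0.046), with NPM1 at 1624, 1602 and 1387 scaled TPM at 48 h, against 2268, 2425 and 2244 in undifferentiated cells (-0.59 ± 0.093). Its lower calls were 2 without the third 48 h library, 3 without the first undifferentiated one and 9 without the third. Translation factors had 3 higher and 5 lower of 20 (median -0.036), where EIF5 was at 182, 193 and 178 scaled TPM at 48 h, against 104, 95.2 and 64.4 in undifferentiated cells (1.09 ± 0.15). Its higher calls were 1 without the first 48 h library and 6 without the third undifferentiated one. The medians of these 3 lists were above 0 after median-of-ratios scaling. Proteasome genes had 10 higher and 2 lower of 35 (median 0.065), or 4 and 10 with equal sums, with PSMD12 at 90.7, 90.9 and 84.5 scaled TPM at 48 h, against 42.3, 53.8 and 44.7 in undifferentiated cells (0.91 ± 0.10). Autophagy genes had 9 higher and 6 lower of 27 (median 0.036), or 4 and 10 with equal sums, with WIPI1 higher (1.22 ± 0.14) and the lysosomal LAMP1 (-0.65) and LAMP2 (-0.67) lower. Without the third 48 h library 5 were higher. Interferon genes had 3 higher and 4 lower of 10 tested (median -0.18), or 1 and 5 with equal sums and 4 and 1 after quantile normalization, IRF9 being at 31.1, 30.1 and 40.03 scaled TPM at 48 h, against 10.7, 11.6 and 13.2 in undifferentiated cells (1.43 ± 0.12). A single higher call was left without any one 48 h library or the second undifferentiated one, and 2 lower calls without the first or the second 48 h library. IFIT1 and IFI6 passed the filter through the undifferentiated libraries alone, as did the 2 tested myeloid markers, CEBPE (-1.37 ± 0.16) and AZU1 (-0.55 ± 0.14), so their direction was fixed by the filter. Of 3 tested megakaryocyte markers ITGA2B, under 1 in every 48 h library, was lower (-1.88 ± 0.11) and GP1BB (0.72) and TUBB1 (0.69) were higher.

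**Figure D5:**
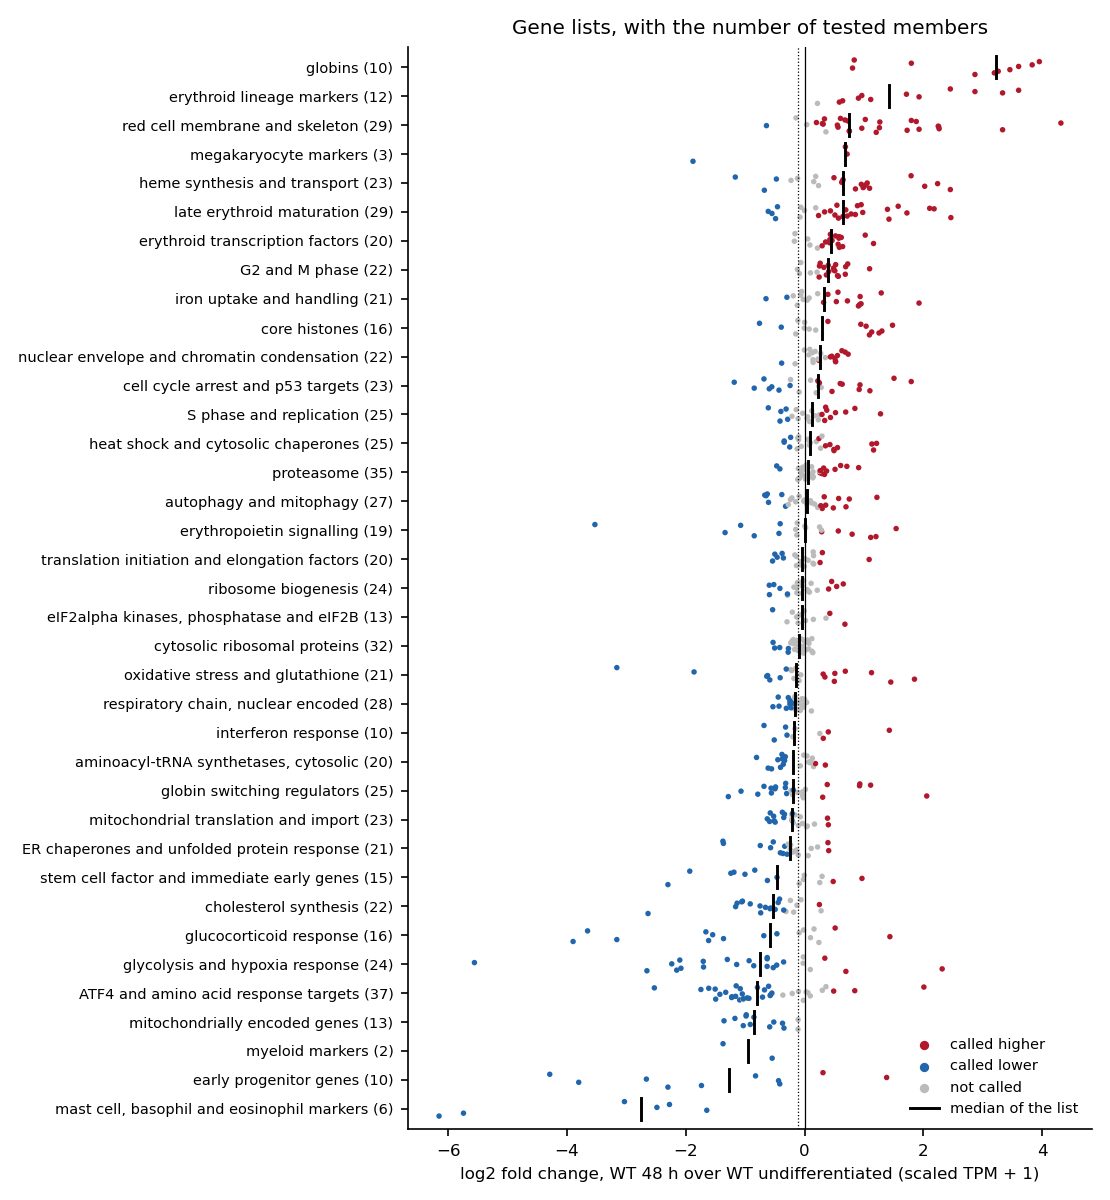
Log2 fold change, WT 48 h over WT undifferentiated, of every tested member of the gene lists, ordered by the list's median (black bar). Red points were called higher, blue lower and grey not called, and the dotted line is the all-gene median of -0.11. Globins (median 3.23) and red cell membrane genes (0.75) lie to the right, early progenitor genes (-1.28) and mitochondrially encoded genes (-0.85) to the left.

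The change over the first 48 h in WT cells was set against that in HBBko cells for the 22 genes chosen by name, in a limma interaction over all 18 libraries. Of all tested genes, 13.7% had a called difference, and 4 of the 22 did, a count near that share, from which nothing is read about the 22 as a group. HBD rose by more in WT cells, with a change of 3.19 against 1.82 in HBBko cells (difference 1.38 ± 0.18, adjusted p = 3.7e-04). HBE1 rose by less in WT cells, 0.81 against 1.51 (difference -0.70 ± 0.16, adjusted p = 0.011). Its levels are close to the pseudocount, and with a pseudocount of 0.1 the difference was -0.48 and not called (adjusted p = 0.28). GATA2 fell by less in WT cells, -1.74 against -2.84 (difference 1.11 ± 0.22, adjusted p = 0.0051). ATF4 fell by more in WT cells, -0.54 against -0.13 (difference -0.41 ± 0.13, adjusted p = 0.047), and the difference was not called without the first or the second 48 h library (adjusted p = 0.1 and 0.094). With the replicate number as a block, 7 of the 22 were called. For the other genes the difference did not pass, among them HBG2 (3.46 in WT and 4.22 in HBBko cells, adjusted p = 0.077) and MYB (-1.28 and -1.20, adjusted p = 0.55), which does not show that the lines changed alike.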

How the data were processed

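Per the labels, WT HUDEP-2 cells were cultured and differentiated in triplicate and total RNA was made into TruSeq libraries. Per the submitters' processing notes, kallisto, sleuth and hg38 were used, with no version given. The authors deposited a signal per gene symbol that the file's name calls TPM. Its library sums differ between libraries, as those of TPM do not, so it had been scaled further in a step not given in the sources used here, and it is called scaled TPM. The test was planned for unscaled TPM and was not changed. The depth is unknown without counts, so no counting interval can be given.

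Genes at 1 scaled TPM or more in 3 or more of the 6 libraries were fitted as log2(value + 1) in R 4.3.3 with limma 3.58.1 (lmFit, eBayes with an intensity trend), with a mean per group, two-sided, and Benjamini-Hochberg adjustment over all tested genes. The SE pools the spread of both groups (4 residual degrees of freedom) and is moderated across genes, and a change on this scale understates that of low genes. The interaction used all 18 libraries. Shares had an exact permutation test, two-sided. The fit was also run on simulated data with independent noise and few changed genes, so that run says nothing about the scaling between libraries.

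Replicate numbers appear in both groups. Deviations from the group means correlated at 0.21, 0.13 and 0.23 between libraries of the same number and at -0.20 to 0.043 between others. The numbers may therefore pair the libraries, which is a weak hint from the data alone. Deviations within a group cancel out, so these correlations are not independent of each other. The tests reported were planned without the pairing, and the block was fitted as an alternative.

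Genes named were 22 chosen by name, the 12 largest rises and falls among called genes with groups apart and a mean of at least 10 in the higher group, the 8 largest gains and losses of level, and up to 5 called members of each of 39 lists with up to 3 that opposed the majority. Other genes named are list members or were named after their values were seen. The members and lists were chosen with earlier results of these data known. All 830 list symbols were found, 37 under an older symbol. Gene coordinates are those of GENCODE on GRCh38. The authors' tables comparing the lines were not used. Some named genes are not reported here.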

Additional observations from a re-analysis of the deposited data

Results flagged for a closer look

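For 4 of the 22 genes chosen by name, the change over the first 48 h differed between WT and HBBko cells by the interaction test, against 13.7% of all tested genes. The difference (WT minus HBBko, log2) was 1.38 for HBD, which averaged 74.9 ± 17.1 scaled TPM in WT and 28.0 ± 3.65 in HBBko cells at 48 h (SD, n = 3 each). Before differentiation HBD was at 7.22 ± 1.199 in WT and 7.21 ± 0.570 in HBBko cells. The difference was -0.70 for HBE1, at 1.33 ± 0.137 in WT and 4.11 ± 0.0968 in HBBko cells at 48 h, and 0.333 ± 0.120 and 0.803 ± 0.162 before. It was 1.11 for GATA2, whose level at 48 h was 31.5 ± 1.12 in WT and 28.2 ± 1.49 in HBBko cells, and before differentiation 109.2 ± 26.5 and 210.03 ± 33.3. It was -0.41 for ATF4, at 394 ± 24.1 in WT and 267 ± 0.962 in HBBko cells at 48 h, and 578 ± 109 and 292 ± 17.7 before. HBD and GATA2 were called under all 17 alternatives that could be run. HBE1 was called in 15 of 16, with a difference of -0.48 and an adjusted p of 0.28 at a pseudocount of 0.1, and ATF4 in 11 of 17, with adjusted p up to 0.11.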

How the results depend on the processing

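Across 18 alternatives, 199 of the 244 named genes kept their direction and their side of the threshold in every one. The reversals were HARS, at -0.019 with equal library sums, and BCL11A, never called, at 0.081 with globins removed, 0.10 under median of ratios, 0.17 under quantile normalization, 0.039 with library weights, and, over single libraries left out, -0.081 to 0.069, above 0 without the third 48 h library (0.0012) or the third undifferentiated one. A pseudocount of 5 gave 715 genes at 2-fold, 187 higher and 528 lower, where the scale itself shrinks the change of low genes. The higher calls were 1169 with equal sums and 3649 under quantile normalization, which put 522 genes at 2-fold higher. Of the 22 genes in the interaction, 2 were called with a pseudocount of 0.1, 8 with equal sums, 7 with the replicate block and 10 with library weights. The alternatives for the interaction were chosen after seeing the data. The causes were not tested. The block called 6583 genes in the main comparison and ended no other call of a gene named in the report than that of HARS.

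Leaving out 1 library at a time gave 5176 to 7100 called genes, 1678 to 2536 higher and 3498 to 4564 lower, and at 2-fold 1385 to 1555, 294 to 381 higher and 1091 to 1174 lower. The interaction gave 3 to 9 of the 22, with 7 without the first undifferentiated library and 9 without the third. The difference in globin share was 17.4 to 19.7 percentage points and that in the mitochondrially encoded share -5.54 to -4.73. Paired by replicate number, both shares had an exact permutation p of 0.25, the smallest that 3 pairs allow. The medians of 27 of 37 lists kept their sign under 4 scalings. With 3 libraries a group and no counts, the precision of low genes rests on this spread alone.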

Other observations

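Metallothioneins, zinc transporters, annexins and S100 proteins were read as families after their values had been seen, and no test of a family was made. Of 13 metallothionein genes, which encode small zinc- and copper-binding proteins, 6 were tested, and MT1E and MT1F among them passed the filter on low values through the 48 h libraries alone, so no count is read. Besides MT1G and MT1E, MT2A averaged 39.7 ± 2.21 scaled TPM at 48 h and 7.66 ± 5.82 in undifferentiated cells (SD, n = 3 each; log2 fold change 2.44 ± 0.36 (SE), adjusted p = 3.2e-04), and MT1X 48.9 ± 7.17 and 19.8 ± 14.1. After 5 d their means were 20.2 for MT2A and 6.95 for MT1X. Of 17 tested zinc transporters 5 were higher and 9 lower, against 19.3% and 36.8% of all tested genes. Nothing is read from a count of so few genes. The zinc exporter SLC30A1 averaged 16.2 ± 1.99 at 48 h and 4.79 ± 1.08 before (1.58 ± 0.15, adjusted p = 1.7e-05), and the importer SLC39A14 averaged 1.57 ± 0.230 at 48 h and 15.1 ± 1.85 before (-2.64 ± 0.12, adjusted p = 2.2e-07).

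Of 12 annexin genes, which encode calcium-dependent membrane-binding proteins, 8 were tested, and ANXA1 and ANXA6 among them passed the filter through the undifferentiated libraries alone, so no count is read. ANXA2 averaged 11.8 ± 0.839 scaled TPM at 48 h and 125 ± 4.01 in undifferentiated cells (-3.30 ± 0.077, adjusted p = 5.1e-09), and ANXA6 0.734 ± 0.130 and 32.8 ± 3.73. S100A10, the partner of ANXA2, was at 25.9 ± 1.68 at 48 h and 144 ± 3.42 before, but at 135 ± 18.2 after 5 d, when ANXA2 was at 7.33 ± 0.737. Of 8 tested S100 genes 5 were lower and 1 higher, against 36.8% and 19.3% of all tested genes, and nothing is read from that count either.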
